A study of Mus musculus with 6 samples.

Results

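The SOX family of transcription factors was followed through the exit of mouse embryonic stem cells from naive pluripotency. The 10 genes described, Sox1, Sox2, Sox3, Sox4, Sox11, Sox12, Sox13, Sox15, Sox17 and Sox21, were taken by name and matched by Ensembl identifier among 51826 genes in the deposited table. The mouse annotation holds 20 SOX genes including Sry, so 10 further family members lay outside the list and are given briefly. Total RNA was sequenced from 3 libraries of epiblast-like cells (EpiLC), on day 3 after LIF and 2i were withdrawn, and from 3 libraries of embryonic stem cells (ESC) maintained with both LIF and 2i. LIF is a cytokine that sustains self-renewal, and 2i is a pair of inhibitors of the kinases GSK3 and MEK. All cells were wild type, came from the V6.5 line and were grown in serum-containing Knockout DMEM. The labels do not say whether replicate libraries came from separate cultures, so p-values measure the spread between these libraries, which may be technical.

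SOX proteins bind DNA through a high-mobility-group (HMG) box that bends the double helix, and most act with a partner factor. They are sorted by sequence into groups such as SOXB1 (Sox1, Sox2, Sox3), SOXB2 (Sox21), SOXC (Sox4, Sox11, Sox12), SOXD (Sox13), SOXF (Sox17) and SOXG (Sox15). In pluripotent cells SOX2 binds composite sites with the POU factor OCT4, and in the embryo SOXB1 factors mark the neural plate, SOXC factors act in neural and mesenchymal progenitors, and SOX17 acts in endoderm.

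Library totals ran from 9710410 to 22879812 counts. The libraries carried the markers of their labels. All 7 naive markers were lower in EpiLC, with a summed level of 44.0 to 50.7 CPM in EpiLC libraries, against 2407 to 2580 CPM in ESC libraries (CPM, counts brought to the same total in every library after TMM scaling). All 5 EpiLC markers were higher in EpiLC, with sums of 1180 to 1451 CPM in EpiLC libraries, against 130 to 140.0 CPM in ESC libraries. ESC replicate 3 stood apart from the other ESC libraries, as the chi-square of its counts, divided by the degrees of freedom, was 29.0 and 29.7 against replicates 1 and 2, where these 2 gave 2.83. EpiLC pairs gave 2.30 to 4.42. Of the markers of other cell types, 9 fibroblast genes summed to 21.7 to 24.0 CPM in EpiLC libraries, against 10.2 to 13.8 CPM in ESC libraries. Of 6 tested, 4 were called higher and 1 lower, with Lum at 0 in EpiLC, and Dcn and Postn at 0 in ESC. Dcn had 143 counts in EpiLC, Acta2 had 200 in EpiLC and 2 in ESC, and Col1a2 had 125 in EpiLC and 7 in ESC. Those genes passed the filter on low counts only through EpiLC, so their direction is not independent of it. Pdgfrb was the gene called lower, at 1.82 CPM in EpiLC and 7.61 CPM in ESC. The 8 trophectoderm genes summed to 227 to 272 CPM in EpiLC libraries, against 66.1 to 73.3 CPM in ESC libraries (3 higher and 1 lower of 5 tested), with Elf5 at 0 in EpiLC. Most of the EpiLC sum was the keratin genes Krt18 (167 CPM) and Krt8 (76.4 CPM), and Krt7 was also higher. Tfap2c was lower, at 3.50 CPM in EpiLC and 35.8 CPM in ESC, and Gata3 was not called. Of those not tested, Cdx2 had 5 counts in EpiLC and 23 in ESC, and Hand1 had 17 in EpiLC and 3 in ESC. The part of these markers in the SOX results was not tested. RNA was taken from bulk cells, so fewer cells of a type and less RNA per cell cannot be told apart.

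The stretch that encodes the HMG box is shown because it is shared by these genes, several of which changed in opposite directions. It was found in the GENCODE M21 transcripts (GRCm38) of all 10 genes and spans 237 bases. The box of Sox2 (chr3:34650536-34650772, plus strand), of its group partners Sox1 (chr8:12396505-12396741, plus strand) and Sox3 (chrX:60892771-60893007, minus strand), and of the SOXC genes Sox4 (chr13:28952617-28952853, minus strand) and Sox11 (chr12:27342034-27342270, minus strand) are printed 5′ to 3′ on the coding strand, with capitals at each base that differs from Sox2.
Sox2: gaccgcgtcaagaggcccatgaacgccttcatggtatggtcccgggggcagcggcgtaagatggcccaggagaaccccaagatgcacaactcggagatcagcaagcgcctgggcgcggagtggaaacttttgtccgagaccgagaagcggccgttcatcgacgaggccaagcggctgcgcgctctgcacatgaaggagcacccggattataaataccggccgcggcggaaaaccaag
Sox1: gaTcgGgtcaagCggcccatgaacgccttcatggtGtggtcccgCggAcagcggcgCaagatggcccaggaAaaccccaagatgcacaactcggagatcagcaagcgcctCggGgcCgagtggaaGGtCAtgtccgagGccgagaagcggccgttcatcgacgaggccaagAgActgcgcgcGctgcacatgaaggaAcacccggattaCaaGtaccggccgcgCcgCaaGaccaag
Sox3: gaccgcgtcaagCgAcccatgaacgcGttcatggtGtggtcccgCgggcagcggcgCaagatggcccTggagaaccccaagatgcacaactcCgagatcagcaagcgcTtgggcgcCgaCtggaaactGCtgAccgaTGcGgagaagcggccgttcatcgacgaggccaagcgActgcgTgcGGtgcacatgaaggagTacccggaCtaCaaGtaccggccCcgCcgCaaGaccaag
Sox4: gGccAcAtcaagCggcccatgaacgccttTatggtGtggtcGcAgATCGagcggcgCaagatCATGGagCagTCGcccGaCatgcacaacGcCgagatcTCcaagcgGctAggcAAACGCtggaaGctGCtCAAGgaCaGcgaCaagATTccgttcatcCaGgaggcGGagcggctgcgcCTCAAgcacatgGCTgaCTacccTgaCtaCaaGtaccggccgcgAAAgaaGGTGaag
Sox11: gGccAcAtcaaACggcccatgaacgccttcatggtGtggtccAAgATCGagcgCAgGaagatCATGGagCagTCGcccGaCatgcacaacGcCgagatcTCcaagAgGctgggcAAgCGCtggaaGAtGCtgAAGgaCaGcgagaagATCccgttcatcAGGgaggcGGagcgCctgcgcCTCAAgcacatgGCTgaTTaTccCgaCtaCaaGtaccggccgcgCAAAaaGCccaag
Sox1 differed from Sox2 at 25 of the 237 positions and Sox3 at 29, whereas Sox4 differed at 74 and Sox11 at 76. Sox4 and Sox11 were identical to each other at 212 positions (89.5%). The longest run shared by the transcripts of any 2 of the 10 genes was 48 bases, between Sox4 and Sox11, followed by 45 bases between Sox1 and Sox3 and 38 bases both between Sox1 and Sox2 and between Sox2 and Sox21. No run of 50 bases was shared between any 2 of the 10 genes.

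The 10 listed genes split evenly, while the 2 other SOX genes tested were both called higher in EpiLC. Of the 10 genes, which all passed the filter on low counts, 5 were called higher in EpiLC (Sox1, Sox3, Sox4, Sox11, Sox12) and 5 lower (Sox2, Sox13, Sox15, Sox17, Sox21), with edgeR's quasi-likelihood test at an adjusted p under 0.05. Over all 14996 genes tested, 64.6% were called, 32.0% higher and 32.6% lower. With at least a 2-fold difference 4 SOX genes were higher and 4 lower, where 17.0% of all tested genes were called and at least 2-fold higher and 12.4% lower. Sox17 and Sox21 had fewer than 10 counts in every EpiLC library. Sox15 had 8, 11 and 15 counts in EpiLC libraries, short of 10 in replicate 1. Sox15, Sox17 and Sox21 passed the filter only through their ESC libraries. Their direction is therefore not independent of the filter. The median log2 fold change, EpiLC minus ESC throughout, was 0.13 over the 10 genes and 0.01 over all genes tested. In 9 of the 10 genes no EpiLC library fell within the range of ESC libraries or the reverse, which held for 70.2% of all tested genes. The exception was Sox1.

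**Figure D1:**
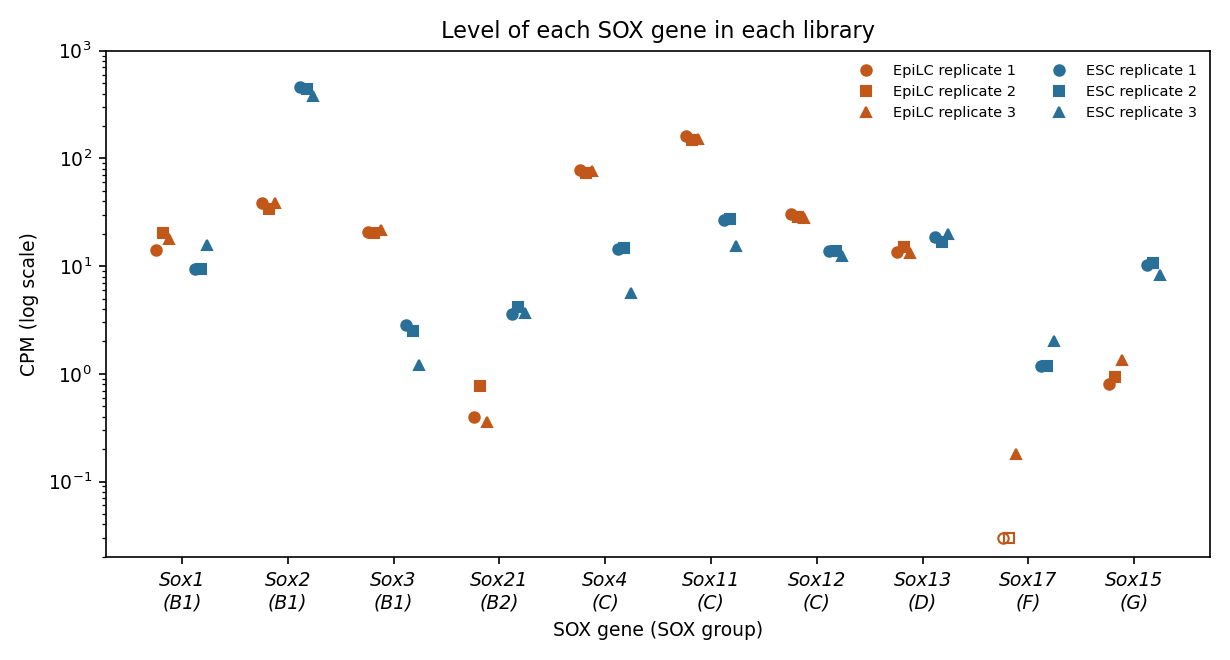
CPM of the 10 SOX genes on a log axis, ordered by SOX group, with a point for each of the 3 EpiLC libraries (left of each gene) and 3 ESC libraries (right), and marker shape for the replicate. Open points on the lowest line are the 2 EpiLC libraries with 0 counts of Sox17. Sox2 stands at 33.8 to 38.8 CPM in EpiLC and 382 to 459 CPM in ESC, Sox11 at 147 to 160.3 CPM in EpiLC and 15.3 to 27.3 CPM in ESC, and the libraries of the 2 states overlap in Sox1.

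The SOXB1 genes moved in opposite directions. Sox2, a core pluripotency factor (ENSMUSG00000074637, chromosome 3, 34650405 to 34652461 on GRCm38, a single exon on the plus strand), stood at 38.8, 33.8 and 38.5 CPM in EpiLC replicates 1 to 3, against 459, 446 and 382 CPM in ESC replicates 1 to 3. All ESC libraries lay far above all EpiLC libraries, and ESC replicate 3 was the lowest of its group. The means were 37.0 ± 2.82 CPM in EpiLC and 429 ± 41.0 CPM in ESC (SD, n = 3 each), a log2 fold change of -3.53 (SE 0.10, adjusted p = 9.01e-08). Among all tested genes 2.33% had a more negative value. Sox3, a factor of the early neural ectoderm (ENSMUSG00000045179, chromosome X, 60891366 to 60893430, a single exon on the minus strand), stood at 20.7, 20.4 and 21.9 CPM in EpiLC libraries, against 2.85, 2.52 and 1.22 CPM in ESC libraries. It was low in every ESC library, with ESC replicate 3 the lowest. The log2 fold change of Sox3 was 3.17 (SE 0.21, adjusted p = 5.29e-06), the largest rise among the 10 genes, 9.02-fold. Sox1, an early marker of neural commitment in mouse (ENSMUSG00000096014, chromosome 8, 12395295 to 12400126, a single exon on the plus strand), stood at 14.3, 20.1 and 18.0 CPM in EpiLC libraries, against 9.39, 9.46 and 15.6 CPM in ESC libraries. Here ESC replicate 3 lay within the EpiLC range, so the groups overlapped. The log2 fold change of Sox1 was 0.64 (SE 0.22, 95% interval 0.14 to 1.15, adjusted p = 0.0315). This call was lost without ESC replicate 1 (adjusted p = 0.103), ESC replicate 2 (0.111), EpiLC replicate 2 (0.132) or EpiLC replicate 3 (0.091), while without ESC replicate 3 the log2 fold change was 0.88 (adjusted p = 1.48e-05). Over the 12 alternatives the adjusted p for Sox1 ran from 1.48e-05 to 0.132.

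Sox21, the SOXB2 gene of the list, encodes a factor known to counteract SOXB1 activators in neural progenitors (ENSMUSG00000061517, chromosome 14, 118233232 to 118237030, a single exon on the minus strand). It stood at 0.401, 0.770 and 0.357 CPM in EpiLC libraries, against 3.58, 4.19 and 3.66 CPM in ESC libraries. The groups were well apart, though the EpiLC values rest on 4, 9 and 4 counts. Its log2 fold change was -2.87 (SE 0.29, adjusted p = 5.67e-05), in the direction of Sox2 and not of Sox3.

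The SOXC genes all rose. Sox11, which promotes neuronal differentiation and survival of progenitors (ENSMUSG00000063632, chromosome 12, 27334264 to 27342574, a single exon on the minus strand), stood at 160.3, 147 and 151 CPM in EpiLC libraries, against 26.8, 27.3 and 15.3 CPM in ESC libraries. Its log2 fold change was 2.70 (SE 0.19, adjusted p = 7.28e-06), 6.51-fold. Sox4, a factor with overlapping roles in neural, lymphoid and cardiac development (ENSMUSG00000076431, chromosome 13, 28948919 to 28953713, a single exon on the minus strand), stood at 78.9, 73.7 and 76.8 CPM in EpiLC libraries, against 14.6, 14.7 and 5.57 CPM in ESC libraries. Both genes were lowest in ESC replicate 3, and no ESC library reached the EpiLC range. The log2 fold change of Sox4 was 2.67 (SE 0.28, adjusted p = 6.37e-05), or 2.37 without ESC replicate 3. Sox12, the third gene of the group, which is widely expressed and a weak activator (ENSMUSG00000051817, chromosome 2, 152393611 to 152398063, a single exon on the minus strand), stood at 30.7, 28.5 and 27.9 CPM in EpiLC libraries, against 13.9, 13.9 and 12.5 CPM in ESC libraries. It rose less, by a log2 fold change of 1.10 (SE 0.10, 95% interval 0.88 to 1.32, adjusted p = 2.25e-05), and its interval did not overlap that of Sox11 (2.26 to 3.14) or Sox4 (2.03 to 3.31). The difference between these genes was not itself tested.

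The 3 SOXC promoters are shown because the genes rose together, and that of Sox2 because it fell. Each is the 250 bases before the start of the gene in RefSeq on GRCm38.p6, printed 5′ to 3′ on the strand of the gene. Such an entry was found for 8 of the 10 genes. They were searched on both strands for 2 forms of the SOX core, ACAAAG and ACAATG, and for the octamer ATGCAAAT bound by POU factors, and capitals mark a match. The windows are Sox11 (chr12:27342719-27342968, minus strand), Sox4 (chr13:28953700-28953949, minus strand), Sox12 (chr2:152398047-152398296, minus strand) and Sox2 (chr3:34649745-34649994, plus strand).
Sox11: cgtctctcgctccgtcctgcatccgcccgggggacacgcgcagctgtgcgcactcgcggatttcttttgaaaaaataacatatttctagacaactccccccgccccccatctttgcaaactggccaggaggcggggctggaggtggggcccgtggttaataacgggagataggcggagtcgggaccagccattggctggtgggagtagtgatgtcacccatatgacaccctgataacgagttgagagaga
Sox4: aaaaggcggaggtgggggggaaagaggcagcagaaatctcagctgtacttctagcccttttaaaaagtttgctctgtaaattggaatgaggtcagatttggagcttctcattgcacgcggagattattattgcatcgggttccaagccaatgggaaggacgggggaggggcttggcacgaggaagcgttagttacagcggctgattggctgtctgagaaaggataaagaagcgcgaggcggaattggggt
Sox12: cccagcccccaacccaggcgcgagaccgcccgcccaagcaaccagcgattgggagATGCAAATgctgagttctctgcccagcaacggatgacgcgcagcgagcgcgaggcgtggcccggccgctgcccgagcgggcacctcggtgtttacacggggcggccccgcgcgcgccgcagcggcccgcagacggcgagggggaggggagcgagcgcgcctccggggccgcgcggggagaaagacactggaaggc
Sox2: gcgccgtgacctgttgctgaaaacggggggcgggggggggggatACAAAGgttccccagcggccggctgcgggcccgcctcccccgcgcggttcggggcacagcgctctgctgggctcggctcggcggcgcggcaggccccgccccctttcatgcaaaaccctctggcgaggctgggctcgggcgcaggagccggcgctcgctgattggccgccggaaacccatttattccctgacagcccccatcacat
Sox11 and Sox4 held none of the 3 motifs in this window, Sox12 held 1 octamer and Sox2 held 1 ACAAAG. Among 27025 promoters of the same length, 16.5% held ACAAAG, 11.0% ACAATG and 1.61% the octamer. The windows held 17 (Sox11), 11 (Sox4), 35 (Sox12) and 27 (Sox2) CG dinucleotides, where the median over all promoters was 6. These matches describe letters and do not show that a factor binds there.

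The remaining 3 genes were lower in EpiLC. Sox15, the only SOXG gene, is known to bind the same motif as SOX2 (ENSMUSG00000041287, chromosome 11, 69655314 to 69656727, with 2 exons on the plus strand). It stood at 0.803, 0.941 and 1.34 CPM in EpiLC libraries, against 10.3, 10.8 and 8.36 CPM in ESC libraries, a log2 fold change of -3.25 (SE 0.23, adjusted p = 7.07e-06). Every EpiLC library was below every ESC library, and the 95% interval of Sox15 (-3.77 to -2.73) overlapped that of Sox2 (-3.76 to -3.31). Sox17, a factor of primitive and definitive endoderm (ENSMUSG00000025902, chromosome 1, 4490931 to 4497354, minus strand), had 0, 0 and 2 counts in EpiLC libraries, against 23, 26 and 23 counts in ESC libraries. Per scaled total it was 22.3-fold lower in EpiLC (95% interval 5.96 to 188, Clopper-Pearson, counting error only). The fitted log2 fold change of Sox17 was -4.31 (SE 0.76, adjusted p = 0.000431), and -7.37 without EpiLC replicate 3, which held both counts. Sox17 was low in both states, at 1.46 ± 0.47 CPM in ESC. Sox13, the SOXD gene of the list, which encodes an autoantigen and acts in T cell development (ENSMUSG00000070643, chromosome 1, 133382303 to 133424377, minus strand), stood at 13.7, 15.1 and 13.3 CPM in EpiLC libraries, against 18.6, 16.6 and 19.9 CPM in ESC libraries. The groups were apart but close. Its log2 fold change was -0.38 (SE 0.11, 95% interval -0.64 to -0.12, adjusted p = 0.0173), and the call was lost without EpiLC replicate 1 (0.0593) or EpiLC replicate 3 (0.0657), within a range of 0.00663 to 0.0657 over the alternatives.

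**Figure D2:**
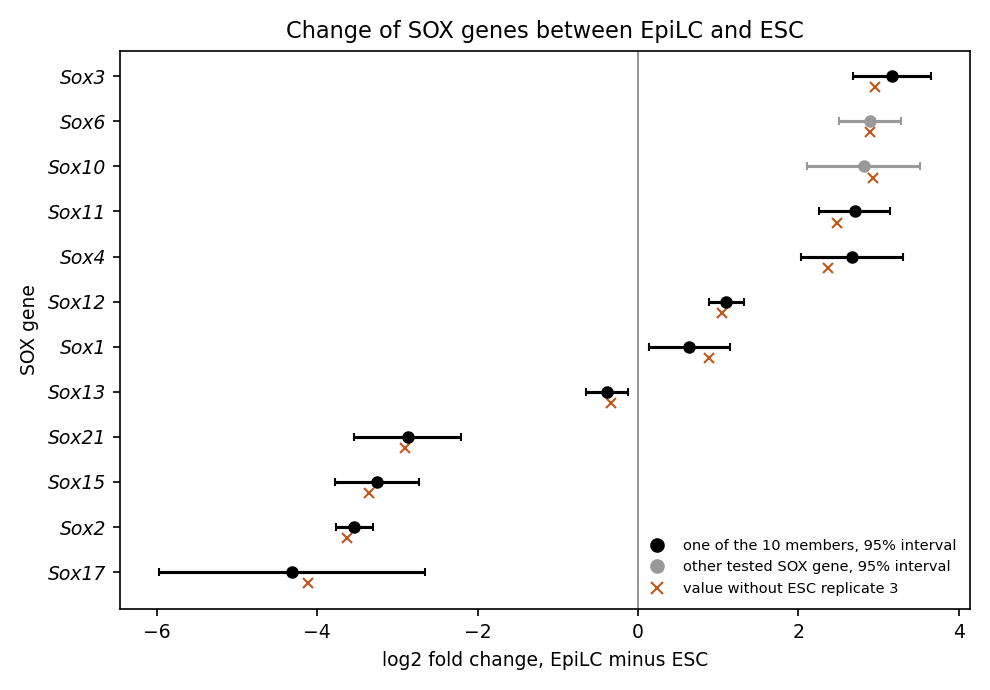
Log2 fold change, EpiLC minus ESC, of the 12 SOX genes tested, with 95% intervals. Black points are the 10 genes of the list, grey points are Sox6 and Sox10, and crosses give the value without ESC replicate 3. The values run from 3.17 for Sox3 to -4.31 for Sox17, and only Sox1 (0.64) and Sox13 (-0.38) lie within a log2 fold change of 1 of zero.

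ESC replicate 3 differed from the other ESC libraries in several SOX genes. On the scale of log2(CPM + 0.5), its difference from the mean of ESC replicates 1 and 2 was -1.32 in Sox4, -0.89 in Sox3 and -0.80 in Sox11. Those 3 genes are among the 5 that rose in EpiLC, so this library lay farther from EpiLC in them than the other ESC libraries did. The difference was 0.70 in Sox1 and 0.57 in Sox17, and between -0.31 and 0.17 in the other 5 genes. Over all tested genes the 5th and 95th percentiles of the same difference were -0.60 and 0.81, and 4.31% of genes differed by at least 2-fold. Without this library the log2 fold changes were 2.37 for Sox4, 2.95 for Sox3 and 2.48 for Sox11, and all 10 genes were called in the same directions.

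**Figure D3:**
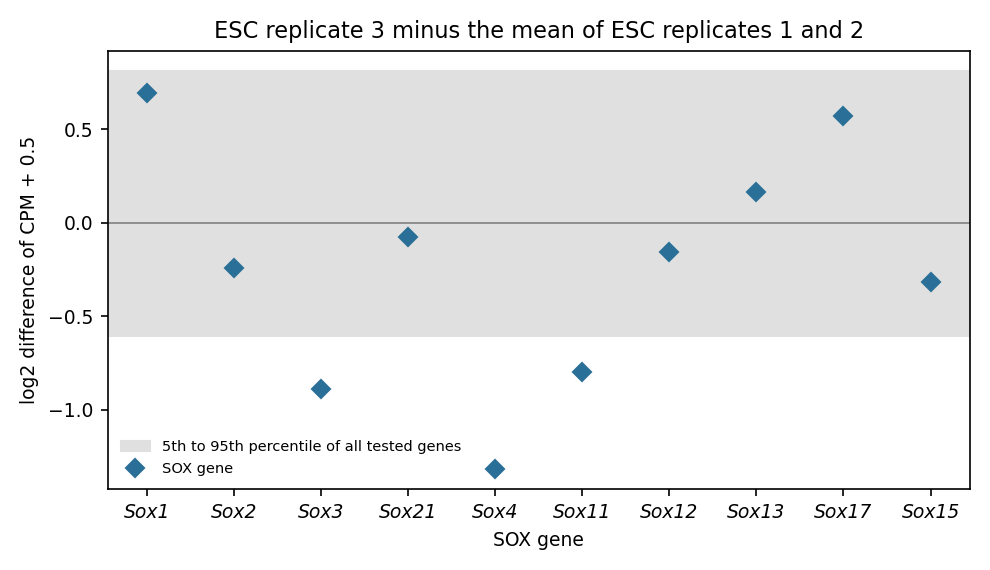
Difference of ESC replicate 3 from the mean of ESC replicates 1 and 2 for each SOX gene, in log2(CPM + 0.5), with the 5th to 95th percentile of all tested genes (-0.60 to 0.81) shaded. Sox3, Sox11 and Sox4 lie below the shaded range, and the other 7 genes lie inside it.

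The make-up of the SOX transcript pool differed between the states. Levels of different genes were compared as CPM per kilobase of exon. The full exon length was used, also for Sox4, where 2616 of 4795 bases are shared with an antisense gene. If reads there were not counted, the level and share of Sox4 given here would be too low. In EpiLC the highest levels were those of Sox11 (18.4 ± 0.82), Sox2 (18.0 ± 1.37) and Sox4 (15.9 ± 0.54 CPM per kilobase), and neighbours in this order overlapped between libraries. Next came Sox3 (10.2 ± 0.37), Sox12 (6.52 ± 0.34), Sox1 (3.61 ± 0.61) and Sox13 (3.25 ± 0.23), of which the last 2 overlapped, then Sox15, Sox21 and Sox17 at 1.19, 0.134 and 0.0125 CPM per kilobase. In ESC Sox2 stood alone at 209 ± 20.0 CPM per kilobase, followed by Sox15 at 11.4 ± 1.48 and Sox13 at 4.26 ± 0.38. The levels of Sox12 (3.02), Sox11 (2.78), Sox4 (2.42) and Sox1 (2.38) overlapped with their neighbours in ESC, and the lowest were Sox3 (1.06), Sox21 (0.942 to 1.10 in the 3 libraries) and Sox17 (0.305). Sox3 and Sox21 overlapped.

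As a share of the length-scaled total of the 10 genes, Sox2 made up 24.0%, 22.0% and 23.9% in EpiLC libraries, against 88.1%, 87.7% and 88.0% in ESC libraries. The SOXC genes together made up 52.9% ± 1.26 in EpiLC and 3.43% ± 0.59 in ESC (SD, n = 3 each). Among the SOXB1 genes, Sox1 and Sox3 together held 17.9% ± 1.23 of the total in EpiLC and 1.47% ± 0.29 in ESC. The length-scaled total itself was 77.2 ± 2.15 CPM per kilobase in EpiLC and 237 ± 22.8 CPM per kilobase in ESC. The SOXB1 sum was 31.8 ± 1.28 CPM per kilobase in EpiLC and 212 ± 19.6 CPM per kilobase in ESC. The SOXC sum was 40.8 ± 1.62 CPM per kilobase in EpiLC and 8.22 ± 2.09 in ESC. These shares are descriptions and were not tested.

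**Figure D4:**
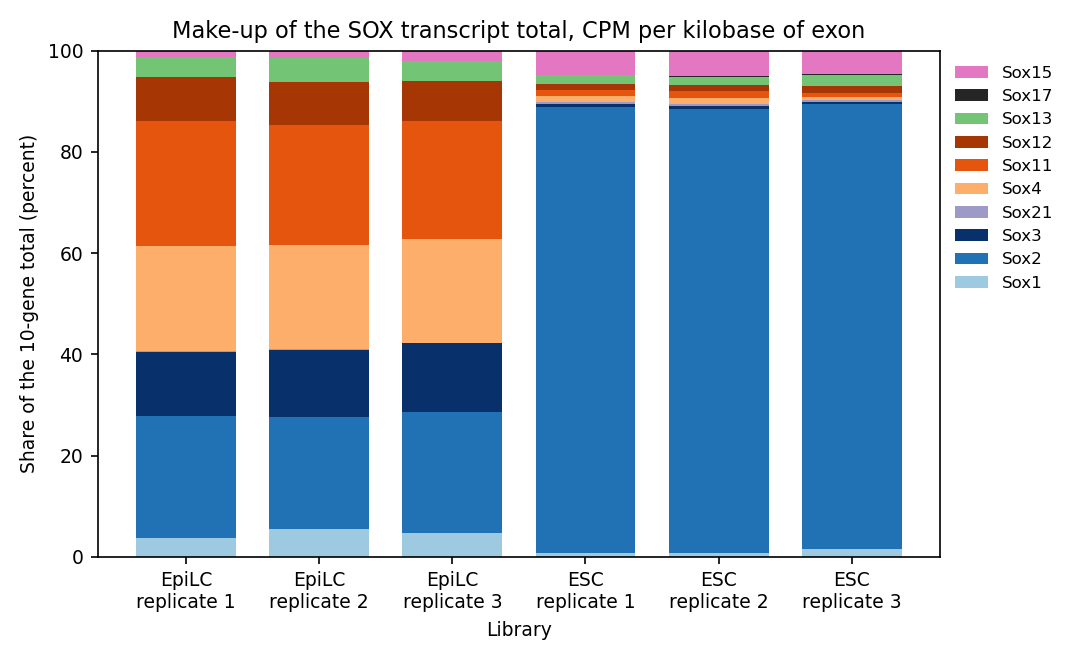
Share of each SOX gene in the summed CPM per kilobase of exon of the 10 genes, in percent, as stacked bars for the 3 EpiLC libraries and the 3 ESC libraries. Sox2 fills 22.0% to 24.0% of the bar in EpiLC and 87.7% to 88.1% in ESC, and the SOXC genes (orange tones) fill 51.7% to 54.2% in EpiLC and 2.75% to 3.83% in ESC.

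Of the other 10 SOX genes, 2 had enough counts to be tested, and both rose. The SOXD gene Sox6 stood at 8.18 ± 0.26 CPM in EpiLC and 1.10 ± 0.05 CPM in ESC, a log2 fold change of 2.89 (SE 0.17, adjusted p = 2.73e-06), whereas its relative Sox13 fell slightly. The neural crest factor gene Sox10 stood at 1.93 ± 0.30 CPM in EpiLC and 0.278 ± 0.064 CPM in ESC (log2 fold change 2.82, adjusted p = 8.55e-05). With 5, 5 and 4 counts in ESC libraries, Sox10 passed the filter only through EpiLC, so its direction is not independent of the filter. The rest were at or under a mean of 0.789 CPM in each state. Over the 3 libraries of a state, Sox7 had 10 counts in EpiLC and 3 in ESC, Sox9 had 6 in EpiLC and 1 in ESC, Sox14 had 2 in EpiLC and 0 in ESC, and Sox5 had 3 in each. Sox18 had 24 counts in EpiLC and 15 in ESC, Sox8 had 26 in EpiLC and 40 in ESC, and Sox30 had 15 in EpiLC and 12 in ESC. Sry had 0 counts in every library. A count of 0 allows up to 3 counts, a level of 0.135 to 0.301 CPM depending on the library.

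Non-coding genes overlapping the SOX genes were low. Sox2ot, the long non-coding transcript whose intron holds Sox2 on the same strand, had 4, 7 and 10 counts in EpiLC libraries, against 29, 32 and 22 counts in ESC libraries. It fell with Sox2, but less (log2 fold change -1.29, SE 0.32, adjusted p = 0.00741), and shares no exon base with it. Sox2ot passed the filter on low counts only through ESC, so its direction is not independent of the filter. Sox1ot, which encloses Sox1 in the same way, had 19 counts in EpiLC and 23 in ESC and was not tested. Gm26735 runs antisense to Sox4 and shares 2616 exon bases with it, and it had 33 counts in EpiLC and 7 in ESC. Gm4675, antisense to Sox21 over 713 exon bases, had 6 counts in EpiLC and 15 in ESC, and Gm37587, antisense to Sox17 over 804 exon bases, had 0 in every library. Gm14662, which starts 223 bases from Sox3 on the other strand, had 19 counts in EpiLC and 1 in ESC. Near Sox1 and Sox2, Gm45560 had 1 count and Gm42692 had 5, all in ESC, and the microRNA model Gm25239 inside Sox1 and Gm27611 near Sox2 had 0. The strand setting of the counting is not given in the sources used here, so reads of Sox4, Sox21 and Sox17 from the shared stretches cannot be told apart from those of their antisense partners. The same holds for 31 exon bases that Sox15 shares with Mpdu1 on the other strand.

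Over all tested genes, against which each of the following lists is set, 32.0% were called higher and 32.6% lower, with a median log2 fold change of 0.01. Some listed genes passed the filter on low counts only through the group where they were higher. Among those named below, Pou4f2, Hesx1 and Hnf4a passed only through ESC, and Pax6, Zic1 and Dab2 only through EpiLC. Their direction, and the counts and medians of their lists, are therefore not independent of the filter. The POU factors, some of which are known partners of SOX proteins on DNA, changed in both directions. Of 11 listed genes 10 were tested: 2 were called higher and 5 lower, 3 missed the threshold, and the median was -0.57 (log2). Pou3f4, not tested, had 31 counts in EpiLC and 1 in ESC. Pou3f1, which encodes the epiblast and neural factor OCT6, stood at 72.5 ± 4.02 CPM in EpiLC and 4.53 ± 0.42 CPM in ESC (log2 fold change 3.98). Pou2f3 fell by 4.17 on the log2 scale to 1.06 ± 0.18 CPM in EpiLC, Pou4f2 by 1.68 and Pou6f1 by 1.25. Pou5f1, which encodes OCT4, was chosen after its values were seen and stood at 495 ± 5.30 CPM in EpiLC and 835 ± 19.1 CPM in ESC, a log2 fold change of -0.75, while that of Sox2 was -3.53. Pou2f1 (165 CPM in EpiLC and 147 CPM in ESC), Pou4f1 (4.28 CPM in EpiLC and 4.75 CPM in ESC) and Pou3f2 (1.36 CPM in EpiLC and 2.35 CPM in ESC) were not called. In ESC replicates 1 to 3 Pou3f2 stood at 0.363, 0.496 and 6.18 CPM, against 0.502 to 2.05 CPM in EpiLC libraries. Pou3f2 turned to a log2 fold change of 1.66 (adjusted p = 0.00479) without ESC replicate 3, and limma-voom with all libraries gave 0.54 (adjusted p = 0.648). Without ESC replicate 3, 5 genes of the list were higher. Leaving out EpiLC replicate 1 or EpiLC replicate 2 gave 1 higher in place of 2, as did DESeq2.

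Genes known to be bound by SOX2 with OCT4 mostly fell. Among 11 listed and tested, 7 were called lower, 3 higher, and 1 missed the threshold (median -0.75, log2). Leaving out 1 library gave 6 to 7 lower and 3 higher. Spp1, which encodes osteopontin, stood at 30.8 ± 2.27 CPM in EpiLC and 680 ± 151 CPM in ESC (log2 fold change -4.46). Fbxo15, an early reporter gene of pluripotency, stood at 15.0 ± 0.28 CPM in EpiLC and 287 ± 51.0 CPM in ESC (log2 fold change -4.25). The homeobox gene Hesx1 had 5 counts in EpiLC and 168 in ESC (log2 fold change -4.31, or -5.94 without EpiLC replicate 1). Lefty1, a NODAL antagonist, rose instead to 439 ± 14.6 CPM in EpiLC, against 61.1 ± 48.2 CPM in ESC. It stood at 6.01 CPM in ESC replicate 3 and at 81.8 and 95.4 CPM in the other ESC libraries. Utf1 (63.5 ± 1.92 CPM in EpiLC and 52.9 ± 14.2 CPM in ESC) was not called. Fgf4, chosen after its values were seen as the classical target with a composite enhancer, stood at 110.0 ± 9.61 CPM in EpiLC and 405 ± 5.49 CPM in ESC.

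Neural progenitor genes mostly rose. Of 10 listed, 8 were tested, 6 of which were called higher and 1 lower (median 2.42, log2), and Fabp7 and Hes5 had at most 8 counts in a state. Pax6, a regulator of forebrain and eye progenitors, rose by a log2 fold change of 5.41 to 9.14 ± 0.37 CPM in EpiLC, or by 6.02 without ESC replicate 2. Otx2, a homeobox factor of the epiblast and anterior brain, rose by 4.11 to 53.6 ± 4.28 CPM, and Nes, the intermediate filament gene nestin, by 3.05 to 352 ± 30.2 CPM. Otx2 is also counted among the EpiLC markers. Zic1 had 44 counts in EpiLC and 3 in ESC (ratio 23.6, exact 95% interval 7.58 to 119). The Notch ligand gene Dll1 was not called (6.99 ± 0.76 CPM in EpiLC and 5.43 ± 3.82 CPM in ESC). Without EpiLC replicate 2 or EpiLC replicate 3, no gene of the list was called lower. Among 7 listed neuronal genes that include known SOXC targets, 4 of 6 tested were called higher and 1 lower (median 0.88, log2). Map2, a microtubule protein of dendrites, rose by 2.78, the RNA-binding protein gene Elavl3 by 2.22 and the TEA-domain factor gene Tead2 by 0.89, while Stmn2, a tubulin-binding protein, fell by 1.74 on the log2 scale. Tubb3 (43.4 ± 6.61 CPM in EpiLC and 51.6 ± 2.31 CPM in ESC) missed the threshold, but was called lower without ESC replicate 3 or EpiLC replicate 2, which gave 2 lower. Dcx, a marker of young neurons, had 32 counts in EpiLC and 0 in ESC, at least 17.2-fold higher against 3 counts over the ESC libraries.

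Endoderm genes, listed beside Sox17, did not move as one. Of 12 listed, 8 were tested, and 4 of these were called higher and 2 lower (median 0.49, log2). Leaving out 1 library gave 3 to 4 higher and 2 to 3 lower. Hnf4a had 0 counts in EpiLC and 193 in ESC, at least 39.9-fold lower against 3 counts over the EpiLC libraries. The laminin gene Lama1 fell by 3.58 on the log2 scale, whereas Lamb1 rose by 1.72 and the endocytic adaptor gene Dab2 by 4.41 (5.45 without ESC replicate 3). Pdgfra (1.92 CPM in EpiLC and 2.03 CPM in ESC) and Cxcr4 (0.901 CPM in EpiLC and 1.40 CPM in ESC) were not called. Gata6, Foxa2 and Cer1 were among those too low to test, with means of at most 0.408 CPM in either state.

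Genes whose products are known to modify SOX2 protein, to read such a mark or to take part in its degradation were also listed. All 6 were tested, and 3 were called higher and 2 lower (median 0.37, log2). Setd7, a lysine methyltransferase that acts on SOX2 in mouse ESC, stood at 182 ± 3.82 CPM in EpiLC and 18.0 ± 8.80 CPM in ESC (log2 fold change 3.38, SE 0.28). The methyl-lysine reader gene L3mbtl3 rose by 0.79 and the arginine methyltransferase gene Carm1 by 0.63, while the ubiquitin ligase gene Wwp2 fell by 0.57 on the log2 scale. Dcaf5 (34.0 ± 1.02 CPM in EpiLC and 31.3 ± 2.50 CPM in ESC) was not called. Leaving out any library other than ESC replicate 3 gave 1 lower in place of 2, as did upper quartile scaling and scaling by library totals.

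The genes with profiles nearest to the largest fall and the largest rise among SOX genes of at least 10 CPM were found by Euclidean distance of centred log2(CPM + 0.5) over the 6 libraries, among 9750 genes. Nearest to Sox2 were the phosphatase family gene Dusp27 (distance 0.239, log2 fold change -3.65), the peptide transporter gene Slc15a1 (0.294, -3.99) and the transglutaminase gene Tgm1 (0.300, -3.57). Nearest to Sox3 were Nbea, which encodes neurobeachin (0.168, 3.14), the transcriptional repressor gene Bcl6b (0.209, 3.13) and Myrf, the myelin regulatory factor gene (0.224, 3.14). With 2 states the distance reads mainly the size of the change.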

How the data were processed

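The authors deposited raw read counts per Ensembl gene, 1 column per library. Build mm10 and the tools cutadapt, STAR, featureCounts and DESeq2 are named, without versions, per the submitters' processing notes. Not given in the sources used here: how strand and multi-mapping reads were handled and which annotation release was counted. RNA was depleted of ribosomal RNA and made into stranded libraries, per the labels' protocols. The 92 spike-in rows held 0 counts and were left out, and 51633 of 51826 Ensembl rows had a symbol in GENCODE M21 on GRCm38, the assembly of mm10.

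Counts were tested across the whole table with edgeR 4.0.16 in R 4.3.3 (quasi-likelihood fit, TMM scaling, filterByExpr with 10 counts per library and 15 in total, group as the single term). Tests were two-sided and adjusted by the Benjamini-Hochberg method over 14996 genes, with calls at an adjusted p under 0.05. The common biological coefficient of variation was 12.5%. Levels are CPM as mean ± SD over 3 libraries, and for comparison between genes CPM per kilobase of the exon union.

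The SOX genes and gene lists were chosen with earlier results of these data known. The lists overlap, so their counts are not separate observations. Otx2 is both an EpiLC marker and a neural progenitor gene, and Pou3f1 both an EpiLC marker and a POU factor. Pou5f1 is both a POU factor and a gene bound by SOX2 with OCT4. Named were all 10 SOX genes, and for each other list at most 4 called genes, taken by size of change at 1 CPM or more, with uncalled genes at that level as values. For the largest fall and rise the 3 nearest profiles were named, leaving out gene models, and for each SOX gene any non-coding gene within 5 kb. Alternatives were DESeq2 1.42.0, upper quartile scaling, library totals, no count filter, limma-voom (limma 3.58.1), a replicate block and each library left out. Intervals on counts cover counting error only.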

Additional observations from a re-analysis of the deposited data

How the results depend on the processing

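The counts of SOX genes called higher and lower stayed at 5 and 5 with DESeq2, limma-voom, upper quartile scaling, library totals, no count filter and the replicate block. Leaving out 1 library gave 4 to 5 higher and 4 to 5 lower, and 4 higher and 4 lower with at least a 2-fold difference each time. The calls lost were those of Sox1 and Sox13. Libraries with the same replicate number had deviations from their group means correlated at -0.09, -0.01 and -0.15, and those with other numbers at -0.13 to 0.14. With 3 libraries per group these values cannot decide whether the numbers pair the libraries. With the replicate number as a block, 9234 of all tested genes were called, against 9685 without it, and each SOX gene kept its call. The block gave 1 in place of 2 POU factors higher and 1 in place of 2 genes for SOX2 protein modification lower. The share of Sox2 in the length-scaled total in ESC was 87.6% with the longest transcript as length and 87.7% with all 20 SOX genes summed, against 87.9%, a move beyond the spread between ESC libraries of 0.20. Pou3f2 reversed to a log2 fold change of 1.66 without ESC replicate 3, leaving out 1 library gave -0.996 to 1.66, and limma-voom with all libraries gave 0.54 (adjusted p = 0.648), against -0.38; the cause was not tested. Leaving out 1 library gave 8514 to 11731 calls over all genes, 4188 to 5815 of them higher and 4326 to 5916 lower. Depth limits Sox17, Sox21 and Sox15 in EpiLC, where 2, 17 and 34 counts were summed.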
